A study of Mus musculus with 6 samples.

Results

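The constitutive proteasome subunits and their partners were described in WT and *Ifnar1*-/- monocytes from the CNS. The genes were the protein-coding genes whose GENCODE M21 symbol is Psma, Psmb, Psmc, Psmd, Psme, Psmf or Psmg followed by a digit. The rule uses the symbol only, but the genes were chosen with earlier results of these data known. *Psmb8*, *Psmb9* and *Psmb10*, the IFN-inducible catalytic subunits, were left out of this rule. It took 47 of the 21983 protein-coding genes in the files. Of these, 46 had any count, and 45 passed the expression filter and were tested. *Psmb11*, the catalytic subunit of the thymic proteasome, had 0 counts in all 6 libraries, which allows up to 3 counts or between 0.427 and 0.638 CPM (counts scaled to a fixed library total, for counting error only). *Psma8*, the testis form of an alpha subunit, had 2, 1 and 7 counts in WT and 7, 6 and 5 in *Ifnar1*-/- libraries and was not tested. *Psmc3ip* fits the letters of the rule but encodes a cofactor of meiotic recombination. It was counted among the 47 genes and placed in no group of subunits.

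Monocytes were compared within the same kind of host. GFP+ mice were lethally irradiated and reconstituted with equal parts of BM from CD45.1 donors that were WT and CD45.2 donors that were *Ifnar1*-/-, and 6 to 7 weeks later EAE, a mouse model of multiple sclerosis, was induced by immunization. All recipients received rIFN-β daily, and at disease peak GFP-CD45+CD11b+Ly6ChiLy6G- cells were sorted from the CNS. The paper states a daily dose of 30000 IU for C57BL/6 mice in another EAE experiment and does not repeat it for these chimeras. There were 3 WT and 3 *Ifnar1*-/- libraries, so the comparison was between cells with and without a chain of the type I IFN receptor in treated mice, and all libraries came from treated mice. The donors differed in the CD45 allele as well as in *Ifnar1*, and effects of genes linked to either locus cannot be told apart from those of the receptor. There were 3 recipients and each held cells of both kinds, so libraries of the 2 groups may come from the same mice. The age of the mice and the mouse behind each library were not given in the sources used here, so p-values measure only the spread between these libraries.

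The proteasome is the protease that degrades ubiquitin-tagged proteins in the cytosol and nucleus. Its core particle is a barrel of alpha rings, which gate the entrance, and beta rings, in which *Psmb5*, *Psmb6* and *Psmb7* encode the catalytic subunits. The regulatory particle caps the barrel: its base holds ATPases that unfold substrates, and its lid removes ubiquitin from them. In cells exposed to IFN, *Psmb8*, *Psmb9* and *Psmb10* can take the places of *Psmb5*, *Psmb6* and *Psmb7*, which makes the immunoproteasome and alters the peptides cut for MHC class I. The question here was whether the genes of the constitutive particle differed between monocytes that can and cannot sense rIFN-β.

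Libraries held between 4531764 and 7321361 expected counts. WT library 1 stood apart, since *Rn7s2*, a 7SL RNA, took 27.8% of its TPM (a level per length, scaled to a fixed total in each library) against 7.36% to 11.2% in the other 5 libraries. For that reason results are also given without it. *Ifnar1* had 152.7, 125.8 and 111.3 normalized CPM in WT and 109.9, 101.5 and 109.4 in *Ifnar1*-/- libraries (log2 fold change 0.28, SE 0.15, adjusted p = 0.36, edgeR). On the TPM scale the means were in the opposite order, with 32.2, 43.0 and 36.7 TPM in WT and 46.8, 48.7 and 41.7 in *Ifnar1*-/- libraries, which overlapped. Counts over the whole gene therefore did not check the labels. The 7 monocyte markers summed to between 8260 and 9876 normalized CPM in WT and between 8841 and 10145 in *Ifnar1*-/- libraries. Among them *Ly6c2* was called, higher in WT (log2 fold change 1.40). *Ccr2* went the other way, with 648.3, 693.7 and 586.8 normalized CPM in WT and 1269, 794.0 and 905.0 in *Ifnar1*-/- libraries. It was not called (log2 fold change -0.62, adjusted p = 0.143, edgeR). The groups overlapped for the remaining monocyte markers. Of the 6 T cell markers all had counts, and their sum was 16.8 to 40.8 normalized CPM in WT and 6.78 to 15.1 in *Ifnar1*-/- libraries, with no overlap. The 6 neutrophil markers summed to 219.3 to 1207 and 594.6 to 1613 normalized CPM, and the 6 microglia markers to 245.2 to 322.2 and 286.3 to 365.4. The 4 B cell markers summed to at most 1.71 normalized CPM. The part of the T cell signal in the results below was not tested.

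Monocytes of both genotypes expressed the whole constitutive particle. All 14 core subunits and all 17 regulatory subunits lay above the median mean level of the genes tested, which was 10.8 TPM. The median over the core subunits was 78.8 TPM and over the regulatory subunits 46.3 TPM. Within a library, the highest of the 14 core subunits exceeded the lowest by 3.14- to 4.33-fold. *Psma2* was the lowest in 5 libraries and *Psmb7* in WT library 3, whereas *Psmb6* or *Psma7* was the highest. As background, an assembled barrel holds each alpha subunit in equal number. Assembly chaperones were much lower than the subunits they handle, with mean levels from 3.80 to 13.5 TPM for 6 of the 7, the exception being *Psmg4* at 70.7 TPM.

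**Figure D1:**
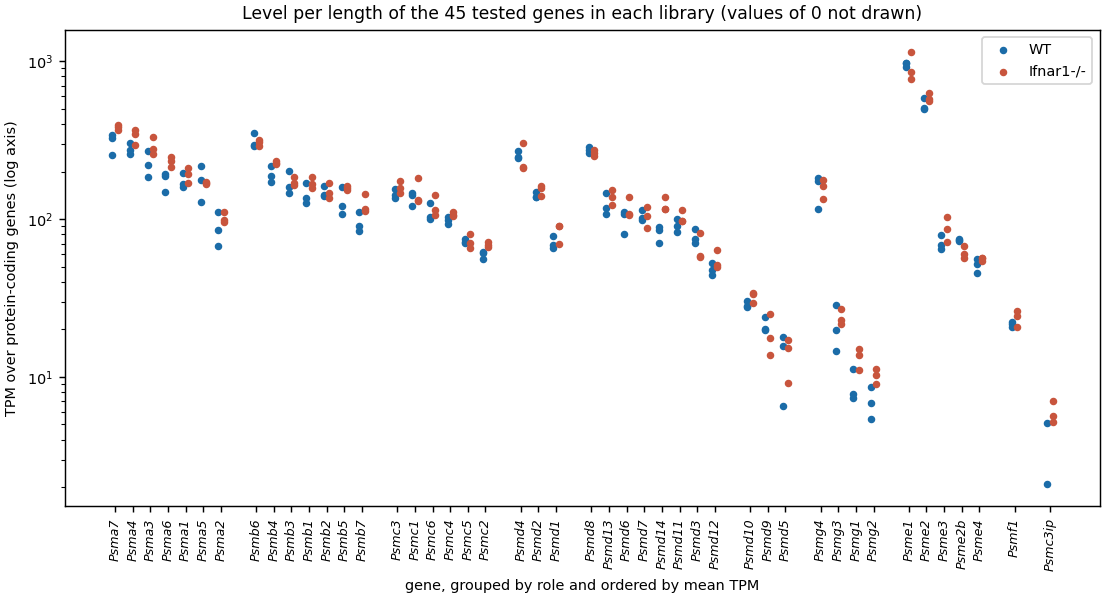
Level per length of the 45 tested genes in each library, in TPM rescaled over protein-coding genes (log axis), grouped by role in the order alpha ring, beta ring, base ATPases, base scaffold, lid, base chaperones, core chaperones, activators, regulator and *Psmc3ip*. Blue points are the 3 WT and red points the 3 *Ifnar1*-/- libraries. *Psme1* and *Psme2* sit above all subunits of the core, with means of 938.3 and 557.5, and *Psmc3ip* is lowest, with a mean of 4.18 and a value of 0 in WT library 1 that is not drawn.

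The 3 genes with the highest mean TPM were *Psme1*, *Psme2* and *Psma7*. *Psme1* and *Psme2* encode the alpha and beta subunits of the PA28 activator, which docks on the ends of the core particle. *Psme1* had 327.5, 461.5 and 463.5 TPM in WT and 321.0, 565.4 and 359.6 TPM in *Ifnar1*-/- libraries. *Psme2* had 169.3, 291.7 and 241.3 TPM in WT and 260.1, 283.1 and 234.9 TPM in *Ifnar1*-/- libraries. The ratio of *Psme1* to *Psme2* was 1.93, 1.58 and 1.92 in WT and 1.23, 2.00 and 1.53 in *Ifnar1*-/- libraries. The groups overlapped in both levels and in the ratio. The 3 lowest of the tested genes were *Psmc3ip*, *Psmg2* and *Psmg1*, with means of 1.90, 3.80 and 4.81 TPM.

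No proteasome gene was differentially expressed between WT and *Ifnar1*-/- monocytes by the edgeR quasi-likelihood test, where a call needed a 1.5-fold change and an adjusted p no higher than 0.05. Among all 11254 genes tested, 2.13% were called, of which 1.67% were higher and 0.462% lower in WT, and the adjusted p alone called 2.13% as well. At an unadjusted p of at most 0.05, 4 of the 45 genes (8.89%) were lower in WT, against 8.14% of all genes, and 0 were higher, against 9.69% of all genes. DESeq2 called 0 of 44 and had 3 at an unadjusted p of at most 0.05. Limma-voom called 0 of 45 and had 7 at that level. For 27 of the 45 genes (60.0%, against 30.7% of all genes) the 95% interval of the fold change lay within 1.5-fold in both directions, so a larger difference was outside the interval for these. For the other 18 genes the interval reached beyond 1.5-fold. Of the 45 genes, 38 had a mean level above the median of all genes tested, and the shares were not compared at matched levels.

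The fitted values of the proteasome genes leaned to one side. The log2 fold change (WT over *Ifnar1*-/-) was below 0 for 38 of the 45 genes (84.4%), against 51.8% of all genes. Its median was -0.21 over the 45 genes and -0.01 over all genes tested. In 11 genes (24.4%, against 12.2% of all genes) every WT library lay below every *Ifnar1*-/- library. The opposite order held for 1 gene (2.22%, against 11.1% of all genes), *Psme2b*. In bulk libraries, fewer cells of a type and less RNA per cell cannot be told apart. These counts describe the list and were not tested, because the genes share libraries and are not replicates.

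Whether the groups differed in the sum over the 47 genes depended on the scale. The 47 genes took 0.390%, 0.490% and 0.441% of protein-coding counts in the WT libraries and 0.501%, 0.520% and 0.497% in *Ifnar1*-/- libraries. Their summed normalized CPM were 3021, 3453 and 3081 in WT and 3460, 3712 and 3405 in *Ifnar1*-/- libraries. Of all counts the genes took 0.290%, 0.358% and 0.316% in the WT libraries and 0.328%, 0.377% and 0.340% in the *Ifnar1*-/- libraries. Groups did not overlap in the share of coding counts, but they overlapped in the share of all counts, and WT library 2 lay above *Ifnar1*-/- library 3 in summed CPM. In TPM rescaled over protein-coding genes the sums were 6170, 6998 and 6505 in WT and 7105, 7415 and 6908 in *Ifnar1*-/- libraries, and the groups overlapped. The ratio of the mean summed TPM as deposited, WT over *Ifnar1*-/-, was 0.915, and it turned to 1.04 without WT library 1. Protein-coding genes took 33.9%, 50.0% and 47.9% of the deposited TPM in WT and 41.5%, 49.4% and 42.1% in *Ifnar1*-/- libraries. On the rescaled TPM the ratio was 0.918 with all libraries. There WT library 2 lay inside the *Ifnar1*-/- range and WT library 3 below it.

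WT library 1 was the lowest of the 6 libraries for 20 of the 45 genes (44.4%), and it was the lowest for 24.0% of all genes tested. Without it, 36 of the 45 genes stayed below 0, against 49.8% of all genes, and the median was -0.13 against 0.00 over all genes. In 13 genes (28.9%, against 16.1% of all genes) both remaining WT libraries lay below every *Ifnar1*-/- library. *Ifnar1*-/- library 2 was the highest for 16 of the 45 genes (35.6%, against 13.5% of all genes). Without it the median was also -0.13, against -0.01 over all genes, and 35 of 44 genes were below 0, against 50.6% of all genes. Then 5 of the 45 genes had every WT library above both remaining *Ifnar1*-/- libraries in place of 1 (11.1%, against 18.7% of all genes). An offset for GC content and gene length brought the median to -0.12 against -0.03 over all genes. With it 34 of 45 genes were below 0, against 54.7% of all genes. With an offset for gene length alone the median was -0.22 against -0.04 over all genes.

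**Figure D2:**
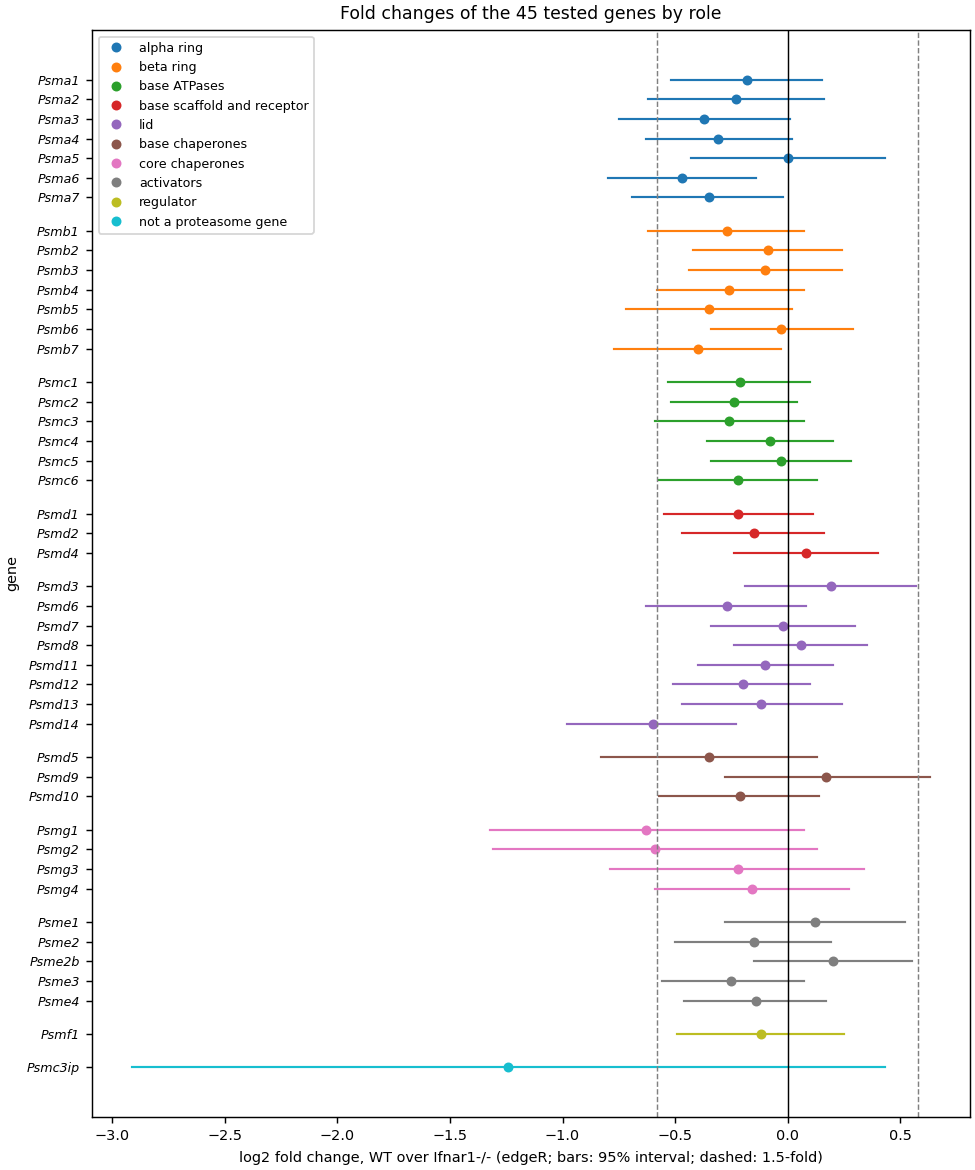
Log2 fold change (WT over *Ifnar1*-/-, edgeR) of the 45 tested genes, grouped by role. Points are fitted values, bars 95% intervals, and dashed lines mark 1.5-fold. Points lie left of 0 for 38 of the 45 genes, and the intervals of *Psmd14*, *Psma6*, *Psma7* and *Psmb7* lie wholly below 0 before adjustment for multiple tests.

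In the core particle, 13 of 14 genes were below 0 (51.8% of all genes were) at a median of -0.26 on the log2 scale, and none was called. Among the 7 alpha subunits the values ran from -0.47 for *Psma6* to 0.00 for *Psma5*. In 2 of the 7 all WT libraries lay below all *Ifnar1*-/- libraries, against 12.2% of all genes. *Psma6* (chromosome 12, 55384222 to 55418454, GRCm38) encodes an alpha ring subunit. It had 59.2, 76.7 and 70.9 normalized CPM in WT and 97.0, 86.1 and 103.0 in *Ifnar1*-/- libraries. All WT libraries were below all *Ifnar1*-/- libraries (log2 fold change -0.47, SE 0.15, adjusted p = 0.145, edgeR). *Psma7* (chromosome 2, 180036374 to 180042433), an alpha subunit and the most abundant of the core by mean TPM, had 86.8, 120.7 and 102.9 normalized CPM in WT and 132.9, 129.1 and 134.4 in *Ifnar1*-/- libraries. The *Ifnar1*-/- libraries lay close together and above the WT libraries (log2 fold change -0.35, SE 0.15, adjusted p = 0.256, edgeR).

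Of the 7 beta subunits, all were below 0 (51.8% of all genes were), with values from -0.40 to -0.03. In 1 of the 7 all WT libraries lay below all *Ifnar1*-/- libraries, against 12.2% of all genes. The catalytic subunits had fitted values from -0.40 for *Psmb7* to -0.03 for *Psmb6*. *Psmb7* (chromosome 2, 38588036 to 38644087), which encodes the trypsin-like subunit, had 44.1, 56.5 and 39.9 normalized CPM in WT and 70.4, 56.6 and 58.1 in *Ifnar1*-/- libraries. The groups came close to each other at replicate 2 of both and did not overlap (log2 fold change -0.40, SE 0.17, adjusted p = 0.242, edgeR). With the GC and length offset *Psmb7* was at -0.17 and *Psmb5* at -0.41, so the order of the catalytic subunits turned. *Psmb7* overlaps *Nek6* on the other strand, and whether reads were counted by strand was not given in the sources used here.

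*Psmb5* (chromosome 14, 54614119 to 54618022) encodes the chymotrypsin-like subunit. It had 35.9, 54.2 and 39.5 normalized CPM in WT and 55.9, 53.7 and 54.8 in *Ifnar1*-/- libraries. WT library 2 lay inside the narrow range of the *Ifnar1*-/- libraries and the other WT libraries below it (log2 fold change -0.35, SE 0.17, adjusted p = 0.306, edgeR). *Psmb6* (chromosome 11, 70525367 to 70527858), the caspase-like subunit, had 82.0, 101.2 and 80.6 normalized CPM in WT and 92.5, 84.9 and 90.8 in *Ifnar1*-/- libraries. The fitted value was -0.03 (SE 0.14, 95% interval -0.34 to 0.29, adjusted p = 0.951, edgeR), and its sign turned under several ways of processing.

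**Figure D3:**
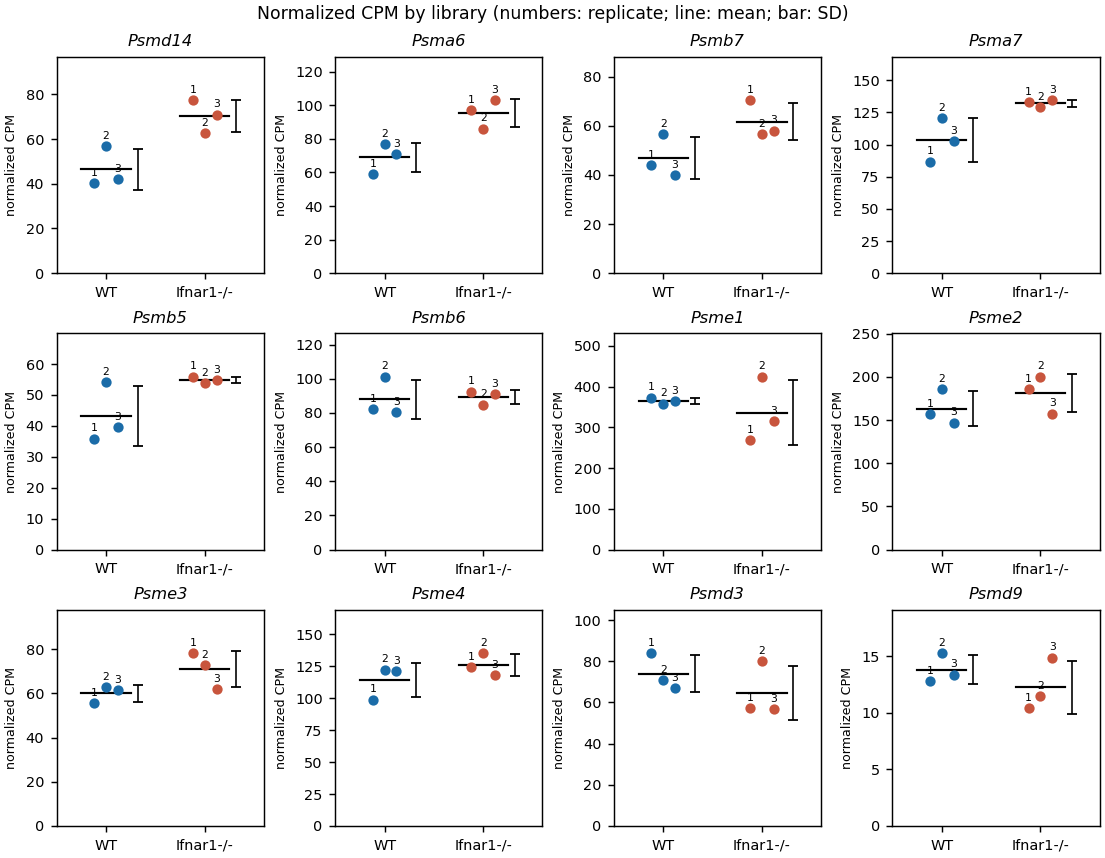
Normalized CPM of 12 proteasome genes in each library. Numbers beside points are replicates, lines are means and bars are the SD (n = 3). The 3 WT libraries lie below the 3 *Ifnar1*-/- libraries for *Psmd14*, *Psma6*, *Psmb7* and *Psma7*, and the groups overlap for the other 8 genes.

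For 12 of the 14 core genes the SD of log2 CPM was larger among WT than among *Ifnar1*-/- libraries, against 54.8% of all genes tested. In the regulatory particle this was so for 4 of the 17 genes (23.5%), with a median SD of 0.09 in WT and 0.15 in *Ifnar1*-/- libraries, and over the 45 genes for 22 (48.9%). The median SD of log2 CPM over the 14 core genes was 0.23 in WT and 0.10 in *Ifnar1*-/- libraries, against 0.23 and 0.21 over all genes tested. WT library 1 was the lowest library for 10 of the 14 core genes, WT library 3 for the other 4, and WT library 2 was the highest of all 6 libraries for 4. Without WT library 2 the median of the core genes was -0.39, and without WT library 1 it was -0.19.

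In the regulatory particle no gene was called either. Of its 17 genes, 14 were below 0 (51.8% of all genes were), with a median of -0.15. The interval lay within 1.5-fold for 14 of the 17 and for 6 of 14 in the core, against 30.7% of all genes. The 6 base ATPases, *Psmc1* to *Psmc6*, ran from -0.26 for *Psmc3* to -0.03 for *Psmc5*. In 2 of the 6, *Psmc1* and *Psmc2*, all WT libraries lay below all *Ifnar1*-/- libraries, against 12.2% of all genes. *Psmc2* had 48.1, 44.4 and 45.8 normalized CPM in WT and 51.9, 57.3 and 54.2 in *Ifnar1*-/- libraries, so the separation was by a small margin (log2 fold change -0.24, SE 0.13, adjusted p = 0.356, edgeR). The base scaffold genes *Psmd1* and *Psmd2* were at -0.22 and -0.15, and the ubiquitin receptor *Psmd4* at 0.08, all with overlapping groups.

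The lid held the gene with the smallest p of the 45. *Psmd14* (chromosome 2, 61711694 to 61800376) encodes the metalloprotease that cuts ubiquitin chains off substrates as they enter the particle. It had 40.3, 57.0 and 42.1 normalized CPM in WT (mean 46.4 ± 9.17, SD, n = 3) and 77.4, 62.7 and 71.0 in *Ifnar1*-/- libraries (mean 70.4 ± 7.38, SD, n = 3). Every WT library was below every *Ifnar1*-/- library. The level was 1.52-fold higher in *Ifnar1*-/- libraries, a log2 fold change of -0.60 (SE 0.17, 95% interval -0.98 to -0.23), with an unadjusted p of 0.00455 and an adjusted p of 0.106 by edgeR, which misses the threshold. It was called, lower in WT, with no filter on low counts (adjusted p = 0.0145, edgeR) and without WT library 2 (adjusted p = 0.0458, edgeR). The adjusted p by DESeq2 was 0.0703 and by limma-voom 0.0984, and the range over all the fits was 0.0145 to 0.347. Other genes (*Gm25966* and *Gm22403*) are annotated inside *Psmd14*, 1 on each strand.

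The other 7 lid genes had log2 fold changes between -0.27 for *Psmd6* and 0.19 for *Psmd3*. In 3 of the 8 lid genes, *Psmd14*, *Psmd6* and *Psmd12*, all WT libraries lay below all *Ifnar1*-/- libraries, against 12.2% of all genes. *Psmd3* (chromosome 11, 98682554 to 98695979) was among the 3 genes with the smallest p on the higher side, with 84.0, 70.8 and 66.9 normalized CPM in WT and 57.4, 80.0 and 56.8 in *Ifnar1*-/- libraries. *Ifnar1*-/- library 2 lay inside the WT range (log2 fold change 0.19, SE 0.17, adjusted p = 0.601, edgeR), and with the GC and length offset the value was -0.04. *Psmd8*, the lid gene with the highest mean TPM (118.5), had a log2 fold change of 0.06.

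No assembly chaperone was called. *Psmg1* and *Psmg2* encode a pair of chaperones that start the alpha ring. *Psmg1* had 4.13, 2.76 and 2.76 normalized CPM in WT and 5.65, 5.25 and 4.23 in *Ifnar1*-/- libraries (log2 fold change -0.63, SE 0.31, adjusted p = 0.324, edgeR). *Psmg2* had 2.85, 3.61 and 2.17 normalized CPM in WT and 3.82, 4.41 and 4.78 in *Ifnar1*-/- libraries (log2 fold change -0.59, SE 0.33, adjusted p = 0.376, edgeR). These 2 of the 4 core chaperones had all WT libraries below all *Ifnar1*-/- libraries, against 12.2% of all genes, at counts between 11 and 37 per library. *Psmg3* and *Psmg4* were at -0.22 and -0.16, with overlap.

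Among the chaperones of the base, *Psmd5* and *Psmd10* were at -0.35 and -0.21, and *Psmd9* was at 0.17. *Psmd9* had 12.8, 15.3 and 13.4 normalized CPM in WT and 10.4, 11.5 and 14.9 in *Ifnar1*-/- libraries, which overlapped (SE 0.20, adjusted p = 0.701, edgeR). *Psmf1*, which encodes a regulator that binds the core, was at -0.12. *Psmc3ip* had 0, 1.06 and 1.78 normalized CPM in WT and 1.53, 2.20 and 2.57 in *Ifnar1*-/- libraries, too few reads to place its log2 fold change of -1.24 (SE 0.75) more closely than -2.91 to 0.43.

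No activator of the core was called, and for all 5 the interval lay within 1.5-fold, against 30.7% of all genes. *Psme1* (chromosome 14, 55578123 to 55581529) showed 372.9, 358.3 and 364.4 normalized CPM in WT and 269.2, 424.1 and 314.8 in *Ifnar1*-/- libraries. The WT libraries were close together, while *Ifnar1*-/- library 2 lay above and the other *Ifnar1*-/- libraries below them (log2 fold change 0.12, SE 0.18, adjusted p = 0.773, edgeR). *Psme2* (chromosome 14, 55587441 to 55591113) showed 156.5, 186.0 and 147.1 normalized CPM in WT and 186.1, 200.3 and 157.4 in *Ifnar1*-/- libraries (log2 fold change -0.15, SE 0.16, adjusted p = 0.653, edgeR). Both genes are known as targets of IFN in other settings, and here neither was called in any of the fits.

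*Psme2b* (chromosome 11, 48945354 to 48946190) is 96.2% identical to *Psme2* over its 837 transcribed bases, so reads may have been divided between them and its value is uncertain. It had 22.5, 23.2 and 21.7 normalized CPM in WT and 19.1, 21.5 and 18.0 in *Ifnar1*-/- libraries. The groups were just separated (log2 fold change 0.20, SE 0.16, adjusted p = 0.552, edgeR). *Psme2b* also overlaps *9930111J21Rik1* and *Gm12185* on the same strand. Whether reads of these genes entered its count was not tested. *Psme3* encodes the nuclear activator PA28 gamma, and *Psme4* encodes PA200, the activator linked to histone degradation. *Psme3* had 55.5, 62.9 and 61.6 normalized CPM in WT and 78.3, 73.0 and 62.0 in *Ifnar1*-/- libraries (log2 fold change -0.25, SE 0.14, adjusted p = 0.396, edgeR). *Psme4* had 99.0, 122.4 and 121.0 normalized CPM in WT and 124.3, 135.4 and 118.4 in *Ifnar1*-/- libraries (log2 fold change -0.14, SE 0.14, adjusted p = 0.641, edgeR). Groups overlapped for both genes.

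The balance of induced to constitutive catalytic subunits was compared within each library by TPM, which can be set side by side between genes. *Psmb8* exceeded *Psmb5* by 9.33-, 8.22- and 9.36-fold in WT and by 5.78-, 7.75- and 6.56-fold in *Ifnar1*-/- libraries. The ratio was above all *Ifnar1*-/- libraries in each WT library, by 1.35-fold on average (log2 difference 0.43, two-sided exact permutation test, p = 0.1, adjusted p = 0.15 over 3 ratios). The ratio of *Psmb10* to *Psmb7* was 3.09, 3.50 and 3.42 in WT and 1.81, 2.92 and 2.59 in *Ifnar1*-/- libraries, again with no overlap (1.39-fold, log2 difference 0.48, exact permutation p = 0.1, adjusted p = 0.15). *Ifnar1*-/- library 1 had the lowest ratio, and without it the log2 difference was 0.28. The ratio of *Psmb9* to *Psmb6* was 0.528, 0.574 and 0.484 in WT and 0.421, 0.572 and 0.501 in *Ifnar1*-/- libraries, which overlapped (log2 difference 0.09, exact permutation p = 0.6, adjusted p = 0.6). With 3 libraries against 3 the test cannot give a p below 0.1, so no ratio could pass 0.05. The ratios carry no offset for GC content. In the fits on counts, the GC and length offset moved the log2 fold change of *Psmb7* from -0.40 to -0.17. It moved *Psmb5* from -0.35 to -0.41 and *Psmb6* from -0.03 to 0.11. The ratios were not recomputed with it.

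**Figure D4:**
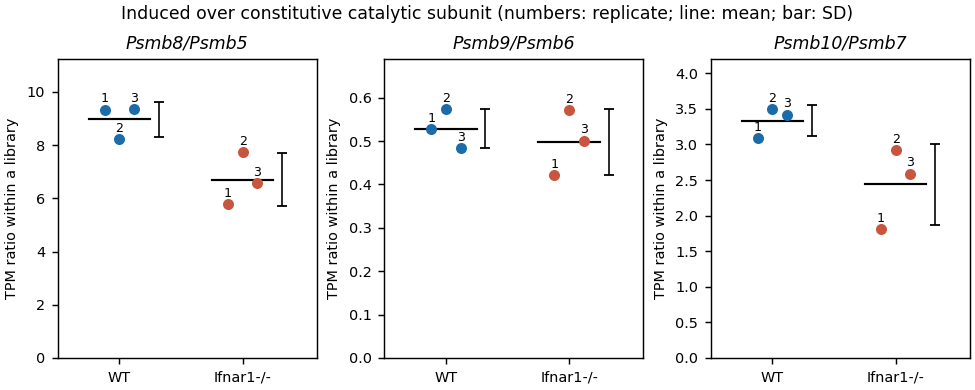
Ratio of the TPM of each IFN-inducible catalytic subunit to the constitutive subunit it can replace, by library. Numbers beside points are replicates, lines are means and bars are the SD (n = 3). WT libraries lie above all *Ifnar1*-/- libraries for *Psmb8*/*Psmb5* (8.97 against 6.70 on average) and *Psmb10*/*Psmb7* (3.34 against 2.44), and the groups overlap for *Psmb9*/*Psmb6* (0.529 against 0.498).

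None of the induced subunits was called. *Psmb8* had 484.4, 632.9 and 516.5 normalized CPM in WT and 456.4, 582.6 and 523.2 in *Ifnar1*-/- libraries (log2 fold change 0.06, SE 0.17, adjusted p = 0.881, edgeR). *Psmb9* had 81.5, 107.1 and 75.2 normalized CPM in WT and 74.5, 83.2 and 78.0 in *Ifnar1*-/- libraries (log2 fold change 0.16, SE 0.16, adjusted p = 0.639, edgeR). *Psmb10* had 143.9, 182.4 and 140.4 normalized CPM in WT and 119.1, 161.7 and 134.6 in *Ifnar1*-/- libraries (log2 fold change 0.17, SE 0.17, adjusted p = 0.644, edgeR). The groups overlapped for all 3 genes. In all 6 libraries *Psmb8* and *Psmb10* RNA exceeded that of their constitutive counterparts, whereas *Psmb9* RNA was below that of *Psmb6*. The ratio of summed TPM of the core to that of the regulatory particle was 1.14, 1.51 and 1.29 in WT and 1.48, 1.30 and 1.47 in *Ifnar1*-/- libraries, with overlap.

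The other genes of the pathway lay on both sides of 0. Of 31 listed genes, 30 were matched and all 30 were tested (*Paaf1* was not analysed here). None was called by edgeR. At an unadjusted p of at most 0.05, 4 of the 30 were lower in WT, against 8.14% of all genes, and 2 were higher, against 9.69% of all genes. The log2 fold change was below 0 for 13 of the 30, against 51.8% of all genes, and its median was 0.03. The 4 on the lower side were partners of the particle: the deubiquitinase *Usp14* (-0.62), the thioredoxin-like *Txnl1* (-0.42), the core maturation factor *Pomp* (-0.36) and the small lid subunit *Sem1* (-0.36). Of the 30 genes, 7 had all WT libraries below all *Ifnar1*-/- libraries, these 4 among them, against 12.2% of all genes. The opposite order held for 2 of the 30, against 11.1% of all genes.

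*Usp14* trims ubiquitin chains at the base of the particle. It had 21.5, 25.5 and 23.1 normalized CPM in WT and 40.5, 29.8 and 37.1 in *Ifnar1*-/- libraries (SE 0.17, adjusted p = 0.094, edgeR). On the higher side was *Zfand2a*, which encodes an arsenite-inducible partner of the regulatory particle, with a fitted value of 0.71 (SE 0.19, adjusted p = 0.090, edgeR) and all WT libraries above all *Ifnar1*-/- libraries. *Nfe2l1*, which encodes the transcription factor that raises proteasome genes when the proteasome is inhibited, had 102.6, 63.8 and 70.1 normalized CPM in WT and 57.7, 72.2 and 60.3 in *Ifnar1*-/- libraries (log2 fold change 0.32, SE 0.19, adjusted p = 0.420, edgeR). The WT mean was set by library 1, and the groups overlapped.

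The promoters of the proteasome genes were read for the core of the antioxidant response element, to which NFE2L1 and NFE2L2 bind, and for the core of the IFN-stimulated response element. RefSeq promoter windows of GRCm38 were used, 250 bases before each start, for 39 of the 47 genes in 42 windows. The letters TGACNNNGC, on either strand, were found in 5 of the 42 windows (11.9%), against 10.2% of 32851 windows of all genes. The windows of the catalytic subunits *Psmb5* and *Psmb6* were among them and are shown because their levels were compared above. Capitals mark the motif, which lies 47 to 39 bases before the start in *Psmb5* (chr14:54617996-54618245, minus strand) and 9 to 1 bases before it in *Psmb6* (chr11:70525107-70525356, plus strand).
*Psmb5*: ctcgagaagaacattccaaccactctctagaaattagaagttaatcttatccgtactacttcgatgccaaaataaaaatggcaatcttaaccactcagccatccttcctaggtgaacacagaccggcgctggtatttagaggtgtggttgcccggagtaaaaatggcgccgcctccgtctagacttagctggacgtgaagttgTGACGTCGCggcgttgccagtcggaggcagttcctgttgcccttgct
*Psmb6*: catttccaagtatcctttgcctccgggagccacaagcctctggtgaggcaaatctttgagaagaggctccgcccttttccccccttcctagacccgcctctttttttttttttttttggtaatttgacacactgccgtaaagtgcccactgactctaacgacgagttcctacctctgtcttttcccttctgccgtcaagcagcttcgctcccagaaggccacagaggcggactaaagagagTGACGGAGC

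The other 3 matches lay in *Psmc6* (chr14:45329587-45329615), *Psmd9* (chr5:123228149-123228177) and *Psmd12* (chr11:107479278-107479299), all plus strand genes, and are given with at most 10 bases on each side. In *Psmc6* and *Psmd12* the match is on the opposite strand, so the motif reads reversed and complemented.
*Psmc6*: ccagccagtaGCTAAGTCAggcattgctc
*Psmd9*: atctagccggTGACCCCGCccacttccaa
*Psmd12*: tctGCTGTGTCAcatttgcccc

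The letters GAAA, any 2 bases and GAAA again, on either strand, were found in 3 of the 42 windows (7.14%), against 2.98% of all windows. These were *Psmb3* (chr11:97703261-97703290, plus strand), *Psmd4* (chr3:95042675-95042704, minus strand) and *Psmd9* (chr5:123228021-123228050, plus strand), with the match on the opposite strand in *Psmb3* and *Psmd4*. Their log2 fold changes were -0.10, 0.08 and 0.17, and none was called. A match describes the letters of a window and not a bound site.
*Psmb3*: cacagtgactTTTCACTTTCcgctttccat
*Psmd4*: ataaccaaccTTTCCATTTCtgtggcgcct
*Psmd9*: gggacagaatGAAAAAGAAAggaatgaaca

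The 45 tested genes were shorter than most, with a median length of 1239 bases against 2133 bases over all genes tested, and had a median GC content of 49.7% against 48.9%. Across all genes tested, the log2 fold change went with GC content (Spearman's rho 0.373, n = 11242) and with length (rho 0.216). Across the 45 proteasome genes rho was 0.329 with GC content and 0.0596 with length. These are correlations across genes of the same 6 libraries, and genes are not independent replicates. With the length offset alone the medians of the core and of the regulatory particle were -0.25 and -0.16. With the GC and length offset both medians were -0.12, and 10 of 14 and 14 of 17 genes were below 0, against 54.7% of all genes. *Psmd14* then had a log2 fold change of -0.45 (adjusted p = 0.161, edgeR). *Psma6* then had a log2 fold change of -0.30 (adjusted p = 0.295, edgeR).

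**Figure D5:**
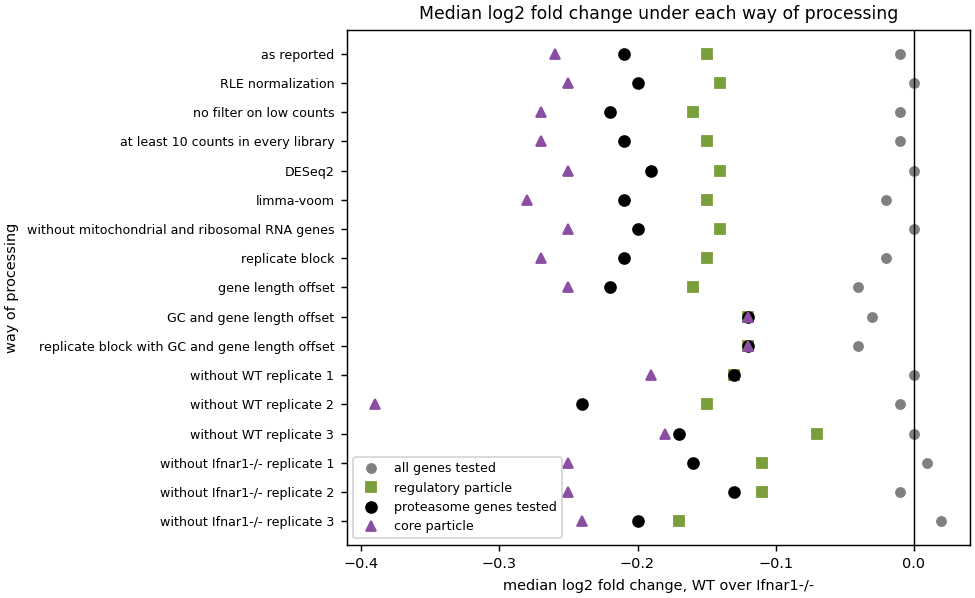
Median log2 fold change (WT over *Ifnar1*-/-) under each way of processing, for the proteasome genes tested, the core particle, the regulatory particle and all genes tested. The proteasome genes lie between -0.24 and -0.12 and all genes between -0.04 and 0.02, and the gap between core and regulatory particle closes with the GC and gene length offset.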

How the data were processed

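FACS-sorted CNS monocytes were profiled by RNA-seq in 3 WT and 3 *Ifnar1*-/- libraries, grouped by the deposited labels. Same-numbered libraries also share a tag in the names of the deposited files that the labels do not explain. Per the labels and the methods of the study, the authors sequenced paired-end reads of 75 bases, mapped them to GRCm38 (STAR 2.6.0c and RSEM 1.2.31 in the submitters' processing notes), and deposited for each of 54232 genes an RSEM expected count, which is an estimated and unnormalized count in which reads shared by similar genes are divided. The authors also deposited TPM, scaled so that all libraries have equal totals, and a gene length. The sources name different library kits.

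Expected counts were rounded, and identifiers were matched to GENCODE M21, with 67 left unmatched. WT was compared with *Ifnar1*-/- by edgeR 4.0.16 in R 4.3.3 (TMM, filterByExpr with a minimum count of 10, quasi-likelihood test without a block, Benjamini-Hochberg adjustment over 11254 genes). Normalized CPM are counts scaled by the TMM-adjusted library size. A call needed a 1.5-fold change and an adjusted p no higher than 0.05. Ratios of TPM were compared by exact permutation. The test was checked on simulated data. Alternatives were RLE, other filters, DESeq2 1.42.0, limma 3.58.1 (voom), leaving out ribosomal RNA and mitochondrial genes, calls by adjusted p without the fold, a replicate block, length and GC offsets, log2(TPM + 1) and log2(TPM + 0.1), and leaving out each library. Libraries of the same group differed by more than sampling noise (chi-square per degree of freedom from 10.8 to 38.1).

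Values in every library are given for *Psmb5*, *Psmb6*, *Psmb7*, *Psme1* to *Psme4*, *Psme2b*, *Psmd14*, the 3 genes with the highest and the 3 with the lowest mean TPM, the 3 with the smallest p in each direction, called genes, *Ifnar1*, *Psmb8*, *Psmb9*, *Psmb10* and *Nfe2l1*; *Psmc2* and *Usp14* were added after their values were seen. Values of a few genes on the lists are not reported here. The genes and the lists were chosen with earlier results of these data known. Of the 47 genes, 10 overlap another annotated gene on the same strand and 16 on the other strand.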

Additional observations from a re-analysis of the deposited data

How the results depend on the processing

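The median of the proteasome genes stayed below 0 in every fit on counts, and in these fits no proteasome gene was called except *Psmd14*. With no filter on low counts, 610 genes were called higher and 262 lower in WT, with 1 proteasome gene lower (*Psmd14*), and 2 pathway genes higher (*Zfand2a* among them) and 1 lower (*Usp14*). With DESeq2, 314 and 105 genes were called, with 1 pathway gene higher. The deviations of same-numbered libraries had correlations (r) of 0.0872, 0.0265 and 0.289, against -0.204 to 0.101 for differently numbered libraries. With so few libraries these values do not settle whether the groups are paired. A replicate block called 182 genes higher and 38 lower and 0 proteasome genes. The replicate block with the GC and gene length offset called 80 genes lower. Leaving out each library gave 110 to 204 genes higher and 7 to 41 lower (7 without WT library 3 and without *Ifnar1*-/- library 1), 0 to 1 proteasome gene lower (*Psmd14*, without WT library 2), 0 to 1 pathway gene higher (1 without WT library 2), 13 to 25 proteasome genes with all WT libraries below (25 without WT library 2), and 1 to 5 with all above (5 without *Ifnar1*-/- library 2); fewer libraries separate more easily, as the rise over all genes from 12.2% to between 16.0% and 19.9% below, and from 11.1% to between 14.2% and 19.1% above, shows. The log2 fold change of *Psmb6* turned to 0.13 with the length offset, 0.11 with the GC and length offset, 0.11 with the block added, and 0.00 on both TPM scales, and ran from -0.13 to 0.05 without each library. *Psmd3* turned to -0.04 with the GC and length offset and -0.03 with the block added, *Psme1* ran from 0.00 to 0.34, and the *Psmb9*/*Psmb6* difference from -0.02 (without *Ifnar1*-/- library 1) to 0.20 on the log2 scale. The ratio of mean summed TPM as deposited, WT over *Ifnar1*-/-, was 0.915, and 1.04 without WT library 1. The cause of these shifts was not tested. Few reads limited *Psmc3ip*, *Psmg1* and *Psmg2* among the genes tested.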
